A study of Mus musculus with 48 samples.

Results

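The mitosis genes described here are 36 mouse genes of the G2 phase and of mitosis, from the proliferation marker Mki67 and the mitotic cyclins to the motors and scaffolds of cytokinesis. They were taken by name, as known G2 and mitosis genes, but the list was drawn up with earlier results of these data known. All 36 were found among the 48526 genes of the deposited table, and 34 of them entered the test, which covered the 14615 genes with a mean of at least 0.5 RPM (reads per 1000000 reads of the library) over all 48 libraries. Cks2, with 26 reads over all libraries, and Birc5, with 68 reads, fell below that level and are given as values only.

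The study profiled bulk RNA of microglia, the resident macrophages of the brain, sorted by Cx3cr1 expression from the hippocampus of juvenile C57BL/6 mice. In the irradiated groups the whole brain received a single dose of 8 Gy on postnatal day 21. The sham controls were of the same strain and were taken at the same times. Tissue was taken at 2 h, 6 h, 1 day or 1 week after treatment, with 6 sham and 6 irradiated animals at each time and separate sham animals for each. Each of the 8 groups thus held 6 libraries, numbered 1 to 6 as in the labels. Cx3cr1 is also expressed by other macrophages and by monocytes, so the sort is not exclusive to microglia.

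Cells prepare for division in G2, when cyclin B and Cdk1 form the kinase that drives entry into mitosis. Kinetochores then tie chromosomes to the spindle, the anaphase-promoting complex destroys cyclins and securin once every chromosome is attached, and a midzone and contractile ring split the cell. Most genes of this programme are transcribed only late in the cycle, under the control of B-Myb, FoxM1, NF-Y and the DREAM complex, and microglia, a self-renewing population, use it when they refill their niche.

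Library totals ran from 175382 to 3856777 reads, with a median of 2212424. The lowest total was that of library 6 of the sham group at 1 day, followed by 395761 reads in irradiated library 2 at 2 h and 731819 reads in sham library 4 at 6 h. The 36 genes together drew 10606 reads over the 48 libraries, and 7 of them fewer than 100 reads each, so single values often rest on a handful of reads. A group with 0 reads of a gene still allows up to 3 reads of the group's total, which was between 0.167 and 0.297 RPM. These limits cover counting error only. Among the sham libraries at 6 h, libraries 1 to 4 stood apart from libraries 5 and 6. With sham libraries 1 to 4 alone, 3850 genes passed the test at 6 h, with sham libraries 5 and 6 alone 279, and with all 6 2665, so mitosis gene results at 6 h are given with each set. The 10 microglial markers summed to between 34159 and 45964 RPM in the group means, far above those of any other cell type examined.

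The summed level of the 36 mitosis genes was highest in irradiated microglia at 1 week. There it was 248.4 ± 32.6 RPM (SD, n = 6) against 104.1 ± 27.6 RPM in sham, 2.39 times as much. The lowest, median and highest irradiated libraries held 198.5, 246.0 and 299.1 RPM, and the sham libraries 71.8, 95.4 and 140.1 RPM. The 2 sets of libraries did not overlap. Before that, the irradiated mean was the lower one at every time, with overlapping libraries. It was 62.9 ± 13.6 against 74.5 ± 25.3 RPM in sham at 2 h, 53.2 ± 10.8 against 79.0 ± 25.4 RPM at 6 h, and 43.2 ± 11.8 against 68.7 ± 24.6 RPM at 1 day (SD, n = 6 each). At 1 day the sham libraries ran from 44.7 to 108.3 RPM and the irradiated ones from 25.9 to 53.2 RPM. The highest sham value came from library 6, the shallowest of all, and the difference of -25.4 RPM was -17.5 RPM without it. At 6 h the difference was -25.8 RPM with all sham libraries, -35.6 RPM with libraries 1 to 4 and -6.24 RPM with libraries 5 and 6. No test was made of these sums, since the genes were chosen with earlier results of these data known. In bulk RNA, more dividing cells and more RNA per dividing cell cannot be told apart.

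**Figure D1:**
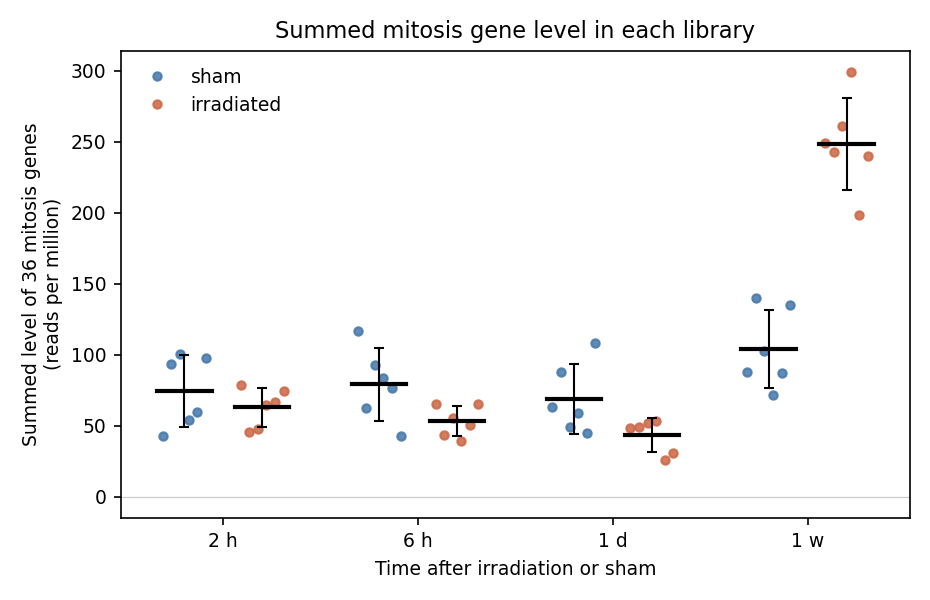
Summed level of the 36 mitosis genes in RPM (vertical axis) by time after irradiation or sham (horizontal axis); each point is 1 library, black bars are the mean and SD of 6. The 6 irradiated libraries at 1 week sit between 198.5 and 299.1, above all 6 sham libraries of that time.

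The number of mitosis genes with at least 1 read was 34 to 36 of 36 in irradiated libraries at 1 week and 25 to 33 in their sham controls. It was 15 to 20 in irradiated libraries at 1 day, against 11 to 30 in sham. Totals at 1 week were between 2266275 and 3507424 reads in irradiated and between 1889343 and 3856777 reads in sham libraries. At 1 day they were between 1824177 and 2396984 reads in irradiated and between 175382 and 3298739 reads in sham libraries, the 11 genes being those of the shallowest library. The part of depth in these gene numbers was not tested.

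At 1 week 6 of the 34 tested mitosis genes were called higher in irradiated microglia and 0 lower (limma on log2(RPM + 1), Benjamini-Hochberg adjusted p under 0.05 over all genes). Over all 14615 genes 1.68 percent were called higher and 1.3 percent lower. All 34 estimates were above 0, with a median of 1.13 on the log2 scale, where 56.6 percent of all genes were above 0 and their median was 0.08. At an unadjusted p under 0.05, 24 of the 34 were higher and 0 lower, against 9.72 and 6.59 percent of all genes. Of the 35 genes with more than 3 reads in each group, 27 had an irradiated mean more than 2 times the sham mean. The share of all genes with such a ratio was not counted. The 6 genes called were Top2a, Ccnb1, Cdca3, Nuf2, Kif4 and Anln, which lie in different role groups. The 30 others summed to 204.6 RPM in irradiated and 94.2 RPM in sham libraries, so the called genes held 23.5 percent of the difference. A fold change on the log2(RPM + 1) scale understates that of low genes, which most of these are. The number called ran from 0 to 14 over other settings of the analysis. It was 1 (Nuf2) without sham library 4, 3 without irradiated library 1, 3 or 5, and 7 without sham library 1. Of the 6 genes called by limma, a quasi-Poisson model of the recovered reads called only Cdca3 and Nuf2.

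**Figure D2:**
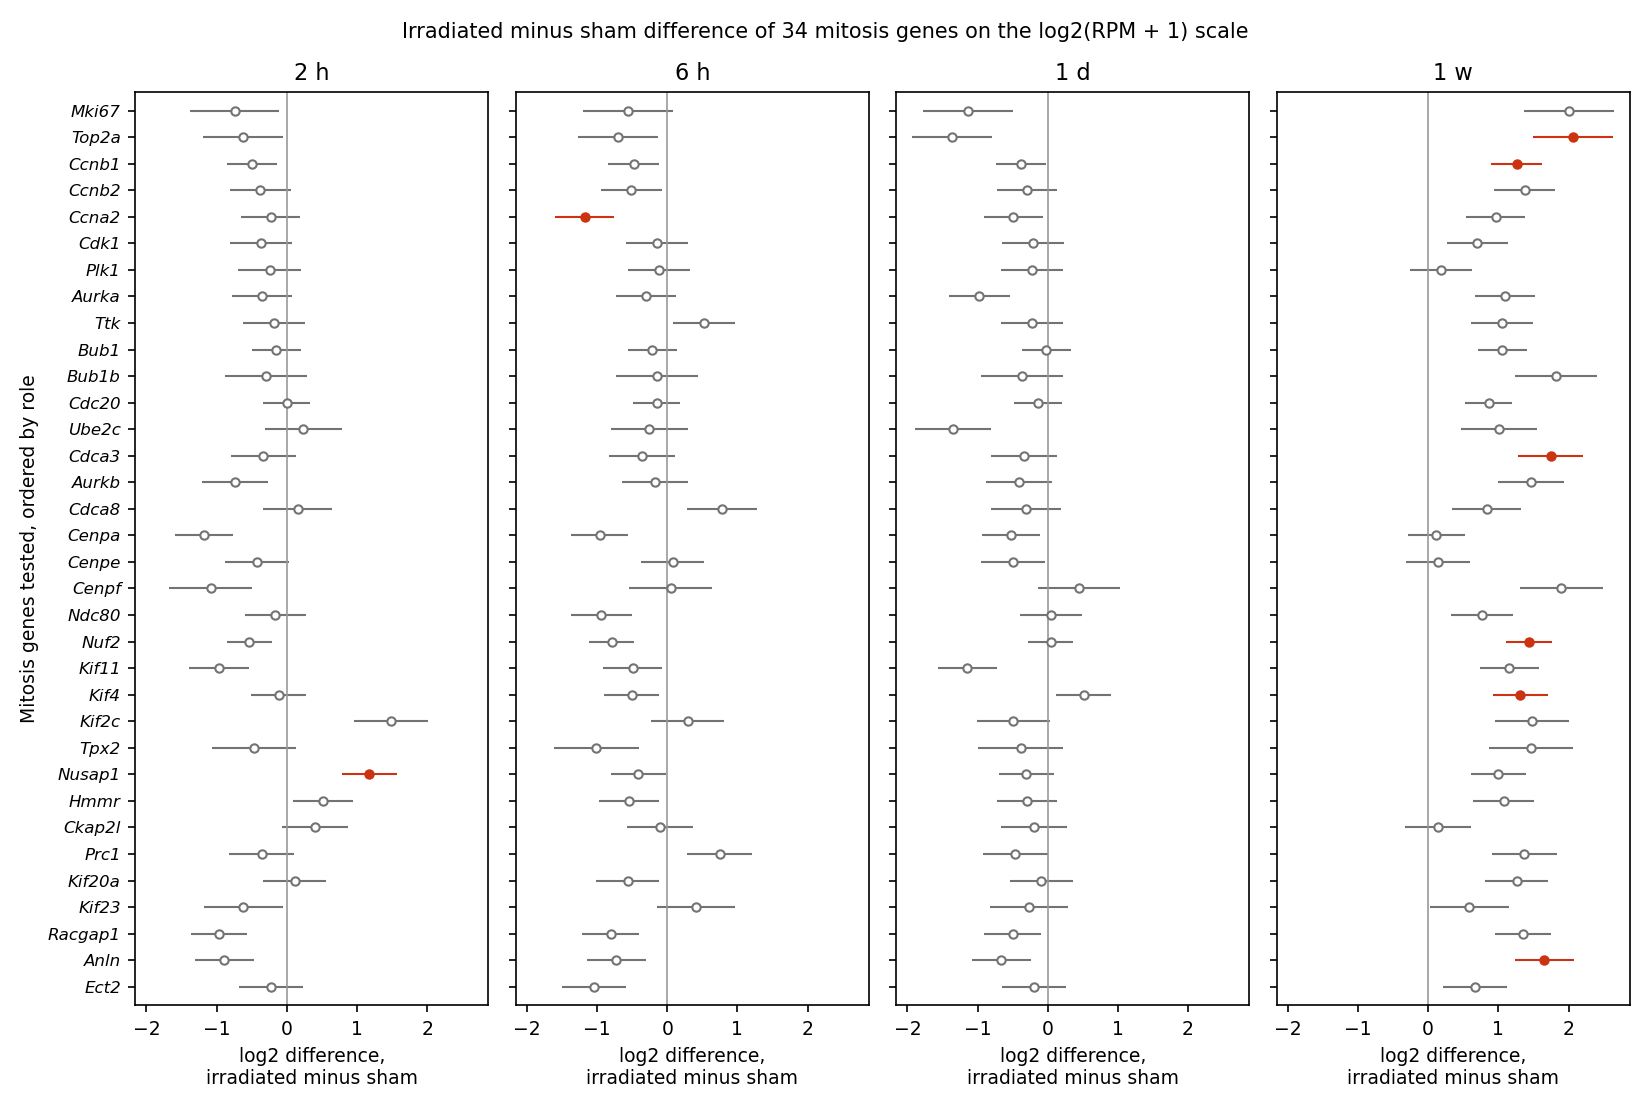
Irradiated minus sham difference on the log2(RPM + 1) scale (horizontal axis) of the 34 tested mitosis genes (vertical axis, by role) at each time, with standard errors; filled red points had an adjusted p under 0.05. All 34 lie right of 0 at 1 week, and 6 of them are filled.

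Mki67 and Top2a, the marks of cycling cells most used in tissue, had the largest estimates of all 34 genes at 1 week. Top2a encodes the topoisomerase that untangles sister chromatids. Its sham libraries at 1 week held 0, 4.34 and 14.3 RPM (lowest, median, highest) and its irradiated libraries 11.3, 15.5 and 31.6 RPM. A single sham library, library 6, reached into the irradiated range. Top2a rose by 2.07 ± 0.57 on the log2 scale (SE, adjusted p = 0.0300), 3.71 times in the mean. Mki67, which coats mitotic chromosomes, held 1.67, 6.37 and 18.5 RPM in sham and 14.8, 28.1 and 39.4 RPM in irradiated libraries. Sham libraries 2 and 3 lay inside the irradiated range, and the difference of 2.00 ± 0.64 did not pass the limma test (adjusted p = 0.0710).

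Among cyclins and Cdk1, Ccnb1, the cyclin of mitotic entry, rose by 1.26 ± 0.36 on the log2 scale (limma adjusted p = 0.0367). Its sham libraries held 0, 0.435 and 1.67 RPM and its irradiated libraries 0.71, 2.12 and 13.3 RPM. The groups overlapped, and the highest value, irradiated library 5, was far above the other irradiated libraries. Without that library the difference was 0.85 and was not called. Ccnb2, a second B-type cyclin, ran from 0 to 4.23 RPM in sham and from 4.41 to 8.53 RPM in irradiated libraries, with no overlap (1.38 ± 0.43, adjusted p = 0.0672). Ccna2, cyclin A2, averaged 2.95 and 6.47 RPM (adjusted p = 0.230), and irradiated library 2 alone held 14.94 RPM, with the next at 5.74 RPM. Cdk1, their kinase, was the 1 gene read in all 48 libraries. Its medians at 1 week were 9.77 RPM in sham and 11.9 RPM in irradiated libraries (0.70 ± 0.44, adjusted p = 0.452), and a single irradiated library, library 6, held 41.3 RPM. Cks2, the small Cdk partner that was not tested, averaged 0.201 and 0.155 RPM, at the level of the read limit.

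The mitotic kinases and checkpoint genes summed to 24.7 ± 8.13 RPM in irradiated and 8.16 ± 1.60 RPM in sham libraries at 1 week, without overlap (18.4 to 35.9 against 5.70 to 9.53 RPM). None of the 5 was called by limma, while 4 had an unadjusted p under 0.05. Bub1b, the checkpoint kinase BubR1, held 0.519, 2.23 and 3.70 RPM in sham and 3.97, 8.78 and 22.4 RPM in irradiated libraries, again with no overlap (1.82 ± 0.58, adjusted p = 0.0731). Aurka, the spindle pole kinase, averaged 1.61 and 4.90 RPM, Ttk, which starts checkpoint signalling, 0.558 and 2.06 RPM, and Bub1, its kinetochore partner, 1.19 and 2.83 RPM. Plk1, the polo-like kinase, was the least different of the 5, with 2.61 and 3.81 RPM (0.18 ± 0.44, adjusted p = 0.896).

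In the turnover group, Cdca3, a trigger of mitotic entry that is itself degraded at the end of mitosis, rose by 1.75 ± 0.47 (limma adjusted p = 0.0250). Its sham libraries held 0.34, 1.89 and 2.65 RPM and its irradiated libraries 5.13, 5.74 and 12.96 RPM. Of the 6 genes called at 1 week it was the only one whose groups did not overlap. Separated libraries were found for 5 mitosis genes, namely Ccnb2, Bub1b, Cdca3, Aurkb and Kif11, 5 of 34 where 1.79 percent of all genes were separated in this direction and 0.972 percent in the other, in which no mitosis gene was. Ube2c, the ubiquitin-conjugating enzyme of the anaphase-promoting complex, averaged 7.71 ± 8.96 RPM in sham and 13.3 ± 7.73 RPM in irradiated libraries (SD, n = 6). Sham library 4 alone held 25.2 RPM, more than any irradiated library. Cdc20, the activator of that complex, averaged 0.399 and 1.59 RPM (0.86 ± 0.34, adjusted p = 0.168). Its span overlaps that of Elovl1 on the other strand, and the strand setting of the counting is not given in the sources used here, so reads of both cannot be told apart.

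Aurkb, the kinase of the chromosomal passenger complex, ran from 1.02 to 2.68 RPM in sham and from 3.35 to 11.96 RPM in irradiated libraries at 1 week (1.47 ± 0.47, limma adjusted p = 0.0725). Cdca8, the borealin subunit, averaged 1.43 and 3.31 RPM (adjusted p = 0.420), and its span overlaps 9930104L06Rik on the other strand, so its reads are uncertain. Birc5, the survivin subunit that was too low to test, had the opposite order, with a mean of 2.07 RPM in sham and 0.856 RPM in irradiated libraries.

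Of the 5 centromere and kinetochore genes, Nuf2, a rod of the Ndc80 complex that grips microtubules, was called. It had the smallest adjusted p of all mitosis genes, 0.00665, with a difference of 1.44 ± 0.32. Its sham libraries lay close together, at 0.529, 0.689 and 0.892 RPM, and its irradiated libraries at 0.883, 5.23 and 6.78 RPM, so only irradiated library 1 reached down to the sham range. Cenpf, a large kinetochore protein of G2 and mitosis, averaged 1.36 ± 1.02 and 8.64 ± 5.93 RPM (1.90 ± 0.59, adjusted p = 0.0630). Ndc80, which names that complex, averaged 1.13 and 2.31 RPM. Cenpa, the centromeric histone, stayed between 3.74 and 8.92 RPM in sham and between 5.13 and 9.15 RPM in irradiated libraries (0.12 ± 0.41, adjusted p = 0.933). Cenpe, a kinetochore motor, averaged 1.92 and 2.35 RPM (0.14 ± 0.45, adjusted p = 0.924).

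Of the 7 spindle motors and microtubule binders, Kif4, a chromosome-arm motor, was called (1.31 ± 0.39, limma adjusted p = 0.0479). It held 0 to 1.30 RPM in sham and 0 to 11.5 RPM in irradiated libraries, irradiated library 1 being the highest. Without that library the difference was 0.93 and was not called. Kif4 overlaps Pdzd11 on the other strand, so its reads are uncertain. Kif11, the motor that pushes spindle poles apart, ran from 0.34 to 4.23 RPM in sham and from 4.26 to 7.98 RPM in irradiated libraries, with no overlap (1.16 ± 0.42, adjusted p = 0.135). Kif2c, a microtubule-shortening kinesin, held 0.34, 2.08 and 10.3 RPM in sham and 4.97, 7.89 and 17.4 RPM in irradiated libraries, and Tpx2, an Aurora A activator, 0, 3.92 and 23.3 RPM and 6.48, 10.3 and 22.4 RPM. A single sham library lay within the irradiated range for each, library 1 for Kif2c and library 3 for Tpx2. Hmmr, a spindle assembly factor, averaged 0.923 and 3.21 RPM, and Nusap1 1.81 and 3.99 RPM, sham library 5 holding 5.70 RPM of it. None of these 4 passed the test. Ckap2l, a mitotic spindle protein, ran from 4.76 to 17.1 RPM in sham and from 5.13 to 11.6 RPM in irradiated libraries, with overlap (0.14 ± 0.47, adjusted p = 0.929).

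Anln, the anillin scaffold of the contractile ring, was the midzone and cytokinesis gene called at 1 week (1.65 ± 0.42, limma adjusted p = 0.0179). Its sham libraries held 0, 1.09 and 5.93 RPM and its irradiated libraries 3.41, 5.44 and 9.27 RPM. Only sham library 2 lay inside the irradiated range. Racgap1, part of the centralspindlin complex, averaged 4.29 ± 3.03 and 11.7 ± 4.28 RPM and stood at the threshold (1.35 ± 0.40, adjusted p = 0.05004, not called). Prc1, which bundles midzone microtubules, averaged 1.92 and 6.33 RPM (adjusted p = 0.0978). Kif20a, a midzone motor, averaged 1.39 and 4.48 RPM (adjusted p = 0.120). Prc1 overlaps Rccd1 and Kif20a overlaps Cdc23, each on the other strand, so the reads of both are uncertain. Ect2, the exchange factor that activates RhoA at the cell equator, averaged 1.57 and 3.17 RPM (adjusted p = 0.507). Kif23, the motor of centralspindlin, averaged 7.01 RPM in sham and 6.61 RPM in irradiated libraries (0.59 ± 0.56, adjusted p = 0.664).

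**Figure D3:**
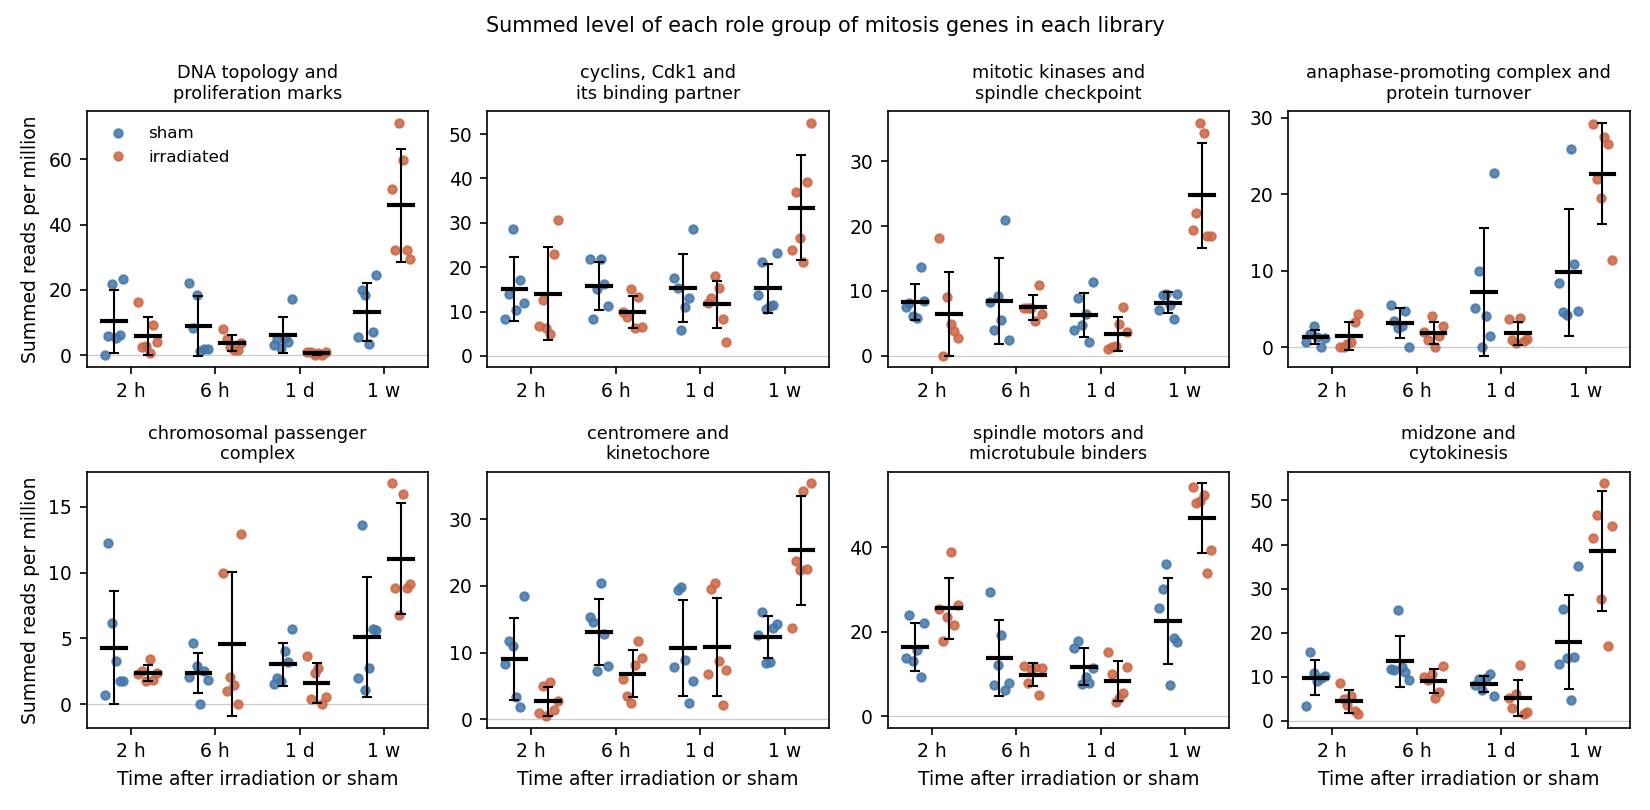
Summed RPM (vertical axis) of each of the 8 role groups by time (horizontal axis); points are libraries, black bars the mean and SD of 6. At 1 week the irradiated mean is the higher one in all 8 panels, and the irradiated libraries stand clear of the sham libraries for DNA topology and proliferation marks and for mitotic kinases and spindle checkpoint.

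All 8 role groups had a higher irradiated mean at 1 week, by 2.06 times (centromere and kinetochore, 12.3 and 25.3 RPM) to 3.48 times (Mki67 with Top2a, 13.2 and 45.9 RPM). Other measures moved with the 1 week groups. Mitochondrial transcripts took 33083 ± 6852 RPM in irradiated and 18076 ± 3351 RPM in sham libraries, and with totals taken without them the difference of the summed mitosis genes was 150.6 RPM. The 10 microglial markers summed to 45964 and 42805 RPM. Among neural progenitors and neuroblasts are cells that divide in the juvenile hippocampus. Their 10 markers summed to 3.30 ± 1.83 RPM in irradiated and 8.62 ± 6.35 RPM in sham libraries. Nes alone held 2.380 RPM of this in irradiated and 7.401 RPM in sham libraries, and Neurod1 and Igfbpl1 had 0 reads in both groups. The 8 markers of monocytes and neutrophils summed to 16.7 and 19.1 RPM, with Ly6g, S100a8 and S100a9 at 0 reads in both. The 9 lymphocyte markers summed to 40.3 and 36.5 RPM, nearly all of it Cd79b, with Cd3e and Cd3g at 0 reads, and the 5 markers of oligodendrocyte precursors to 1.40 and 4.45 RPM. The 5 neuronal markers summed to 62.1 RPM in irradiated and 2.28 RPM in sham libraries, with medians of 1.77 and 1.82 RPM. A single irradiated library held 364.5 RPM. Slc17a7 alone made up 60.97 RPM of the irradiated mean and 0.276 RPM of the sham mean. Snap25, Syt1, Rbfox3 and Tubb3 each had the lower mean in irradiated libraries. The part of mitochondrial transcripts in the mitosis gene differences beyond that rescaling was not tested.

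The irradiation effect at 1 week was compared with that at 1 day in the same fit. By that contrast 5 of the 34 mitosis genes differed, all with a higher effect at 1 week, where 1.94 percent of all genes did so and 2.09 percent differed the other way. They were Top2a (3.43 ± 0.80, limma adjusted p = 0.00696), Anln (2.32 ± 0.59, adjusted p = 0.0157), Kif11 (2.30 ± 0.60, adjusted p = 0.0174), Mki67 (3.14 ± 0.90, adjusted p = 0.0345) and Aurka (2.07 ± 0.61, adjusted p = 0.0382). All 34 estimates were above 0 (median 1.42, all genes 0.06), 23 with an unadjusted p under 0.05, where 10.1 percent of all genes were higher and 8.69 percent lower at that level. Their levels at 1 day enter this comparison. Mki67 had 0 reads in all 6 irradiated libraries at 1 day, which allows up to 0.241 RPM, against 19 reads in 5 of 6 sham libraries and a sham median of 1.72 RPM. Kif11 likewise had 0 reads in all 6 irradiated libraries and a sham median of 1.05 RPM. Top2a held 0 to 1.06 RPM in irradiated and 0 to 17.1 RPM in sham libraries, the highest being library 6 with its low total. Aurka averaged 0.520 and 2.38 RPM, and Anln 0.344 and 1.28 RPM. In the animals taken at 1 week the irradiated means of these 5 genes were 27.6, 5.68, 18.3, 4.90 and 6.17 RPM for Mki67, Kif11, Top2a, Aurka and Anln in that order. Without sham 1 day library 6, Aurka was not called in this comparison, and the differences of Top2a and Kif11 were 2.98 and 1.98, still called. A quasi-Poisson model of the recovered reads called Kif11 and Racgap1 in this comparison, and not Top2a, Anln, Mki67 or Aurka. By limma, leaving out any 1 of the 24 libraries kept Top2a, Anln and Kif11 called, but not Mki67 in 11 and Aurka in 13 cases. The number called was 3 without sham library 4 or irradiated library 3 of 1 day, and 8 without sham library 5 or 6 of that time. Neither the 6 h minus 2 h nor the 1 day minus 6 h contrast called a mitosis gene (0 of 34 each, and 0 by a quasi-Poisson model), where 4.74 and 1.33 percent of all genes were called higher and 2.96 and 1.79 percent lower. At an unadjusted p under 0.05 these contrasts had 1 lower gene and 0 genes, with 12.8 and 7.32 percent of all genes higher and 8.93 and 10.3 percent lower.

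**Figure D4:**
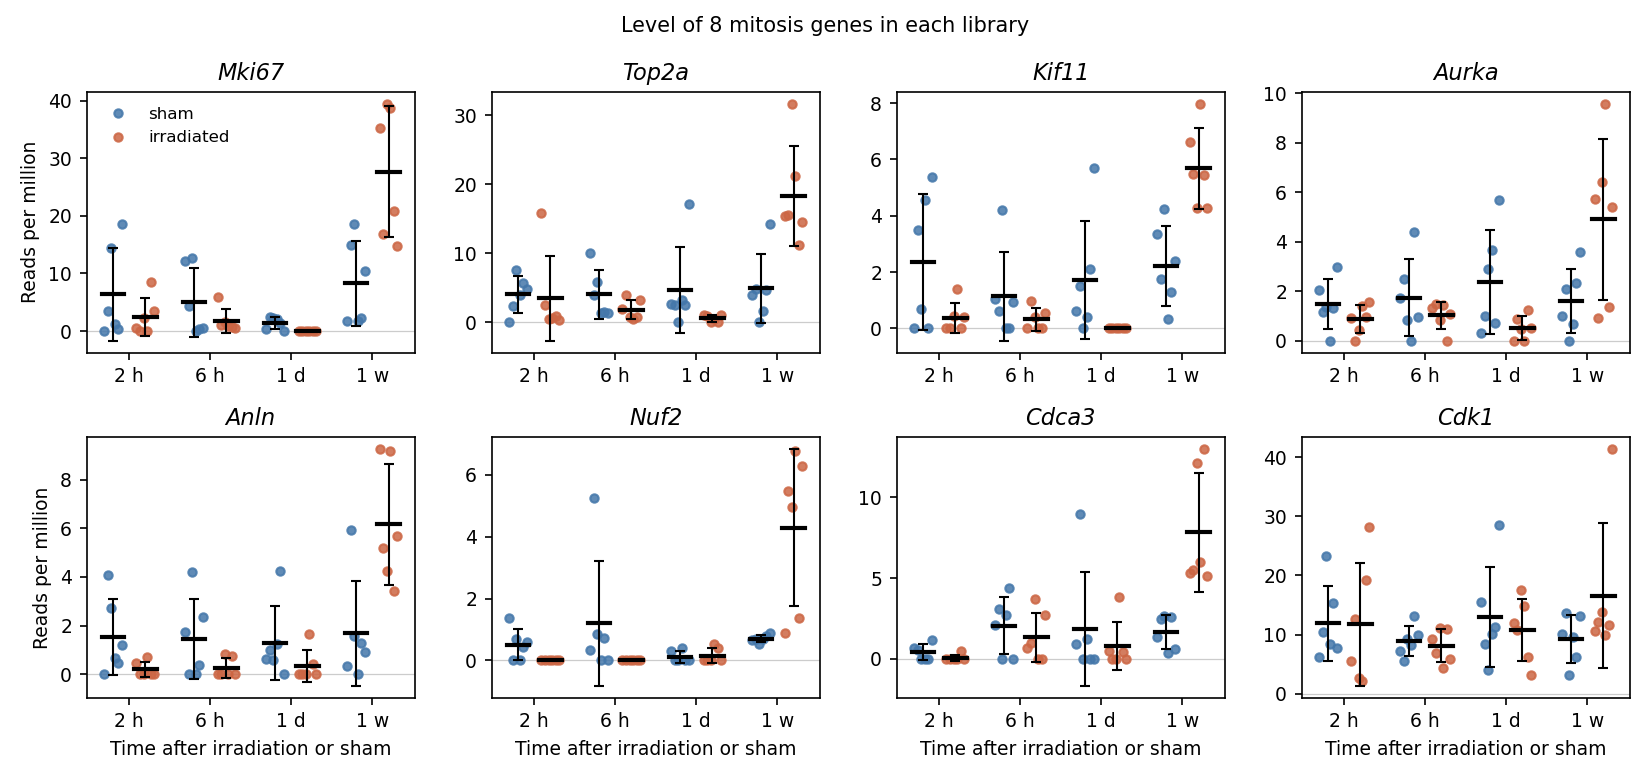
RPM (vertical axis) of 8 mitosis genes by time (horizontal axis); points are libraries, black bars the mean and SD of 6. Mki67 and Kif11 are at 0 in all 6 irradiated libraries at 1 day, and Cdk1 shows 1 irradiated library at 41.3 at 1 week.

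At 1 day no mitosis gene was called between irradiated and sham microglia by limma (0 of 34), where 2.76 percent of all genes were called higher and 1.56 percent lower. At an unadjusted p under 0.05, 4 were lower and 0 higher (8.87 percent of all genes were higher and 6.9 percent lower at that level), and the quasi-Poisson model of the recovered reads called 1 lower, Mki67. The 4 were Top2a, Aurka, Ube2c and Kif11, with differences of -1.36, -0.97, -1.35 and -1.15. No tested mitosis gene had separated libraries (all genes 1.96 percent higher and 0.664 percent lower). Estimates were below 0 for 30 of 34 genes, with a median of -0.32 against 0.01 for all genes. Mki67 and Top2a together summed to 0.587 ± 0.49 RPM in irradiated libraries, 0 to 1.06 RPM, and to 6.10 ± 5.51 RPM in sham libraries, 2.33 to 17.1 RPM, without overlap. Ccnb1 and Birc5 also had 0 reads in the irradiated group. Kif4 had 0 reads in all 6 sham libraries, and its 14 irradiated reads all came from library 6. Cdk1 averaged 10.8 RPM in irradiated and 12.995 RPM in sham libraries, and Ckap2l 3.44 and 3.75 RPM. The 10 microglial markers summed to 34159 RPM in irradiated and 44593 RPM in sham libraries at this time, and the monocyte and neutrophil markers to 50.9 and 23.9 RPM. Of the microglial markers, C1qa and C1qb had the higher mean in irradiated libraries and all others the lower. Of the monocyte and neutrophil sums, Plac8 alone held 42.7 and 17.0 RPM (limma adjusted p = 0.158), and Ccr2 6.34 and 6.75 RPM. The part of these markers in the mitosis gene values was not tested.

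At 6 h Ccna2 was the mitosis gene called, lower in irradiated microglia by limma (-1.17 ± 0.42, adjusted p = 0.0433), and 0 were higher. Over all genes 7.22 percent were called lower and 11 percent higher. At an unadjusted p under 0.05, 5 were lower and 0 higher, where 12.6 and 17.9 percent of all genes were. No mitosis gene had separated libraries at 6 h (all genes 4.52 percent higher and 2.58 percent lower). The sham libraries of Ccna2 held 0, 2.18 and 13.7 RPM and the irradiated libraries 0, 0.514 and 1.46 RPM. The groups overlapped, and the highest sham value came from library 4, 1 of the 3 shallowest libraries. Ccna2 also overlaps Exosc9 on the other strand, so its reads are uncertain. Without that library the difference was -0.74 and was not called. No mitosis gene was called without sham library 1 or 3 or irradiated library 1, 2 or 4, while 3 were without sham library 6 and 2 without irradiated library 3. With sham libraries 5 and 6 alone it was -0.19, and with sham libraries 1 to 4 alone Ndc80, Ect2 and Nuf2 were called lower beside Ccna2. Nuf2 had 0 reads in all 6 irradiated libraries at both 2 h and 6 h, against 5 and 22 sham reads. Of those 22 reads, 17 were in sham library 2, at 5.26 RPM where the next library held 0.842 RPM. Ndc80, its partner, and Kif4 also had 0 irradiated reads at 6 h. Cenpa averaged 3.24 RPM in irradiated and 6.85 RPM in sham libraries (-0.96 ± 0.41, adjusted p = 0.0956). Estimates were below 0 for 27 of 34 genes (median -0.39, all genes 0.09). The 10 microglial markers summed to 37761 RPM in irradiated and 44512 RPM in sham libraries at 6 h, and the 5 markers of perivascular macrophages to 65.6 and 129.5 RPM, both without overlap. Of the microglial markers, C1qa, C1qb and Tmem119 had the higher mean in irradiated libraries and all others the lower. C1qb averaged 2940 RPM in irradiated and 1439 RPM in sham libraries, and C1qa 3128 and 2163 RPM. Of the perivascular macrophage markers, Mrc1 averaged 32.0 RPM in irradiated and 108.5 RPM in sham libraries. Cd163, Lyve1, Pf4 and F13a1 each had the higher mean in irradiated libraries. The 10 markers of neural progenitors and neuroblasts summed to 55.6 and 15.1 RPM (39.0 to 71.3 against 5.88 to 39.6 RPM). Nes alone held 53.01 RPM of this in irradiated and 12.04 RPM in sham libraries, so the difference was mostly that of 1 gene. Of the 10, 3 were at 0 reads in irradiated and 2 in sham libraries. Mitochondrial transcripts took 32502 RPM in irradiated and 53146 RPM in sham libraries. The part of all these in the mitosis gene values was not tested.

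At 2 h estimates were below 0 for 26 of 34 genes (median -0.34, all genes -0.02). The role groups differed in the direction of their means, as they also did at 6 h and 1 day. Nusap1, a spindle-bundling protein, was called higher in irradiated microglia by limma (1.18 ± 0.39, adjusted p = 0.0498), and 0 mitosis genes were lower, where 4.39 percent of all genes were called higher and 3.88 percent lower. At an unadjusted p under 0.05, 2 were higher and 4 lower (all genes 9.46 and 10.1 percent), and none had separated libraries (all genes 2.42 percent higher and 1.8 percent lower). Its sham libraries held 0, 0 and 1.79 RPM and its irradiated libraries 0.454, 2.16 and 4.23 RPM, so the groups overlapped. Nusap1 overlaps Oip5 on the other strand. The call of Nusap1 was lost in 8 of the 12 fits that left out 1 library, and 0 mitosis genes were called without sham library 3 or 4 or irradiated library 2, 3 or 5, while 2 were without irradiated library 1. Kif2c ran from 1.30 to 8.16 RPM in sham and from 2.72 to 30.6 RPM in irradiated libraries (1.49 ± 0.52, adjusted p = 0.0666). The spindle motors and microtubule binders, which include both, summed to 25.5 RPM in irradiated and 16.3 RPM in sham libraries. The other way, the centromere and kinetochore genes summed to 2.69 and 9.07 RPM and the midzone and cytokinesis genes to 4.46 and 9.84 RPM. Cenpa averaged 1.46 and 5.08 RPM (-1.18 ± 0.41, adjusted p = 0.0651), with 14.95 RPM in sham library 6 and a sham mean of 3.10 RPM without it. Racgap1 averaged 0.822 and 2.44 RPM (adjusted p = 0.146), and Cenpf had 0 reads in the irradiated group. Without the 3 shallow libraries, 3 genes were called at 2 h, Kif2c higher and Cenpa and Racgap1 lower, and Nusap1 was not. Mitochondrial transcripts took 105481 ± 30309 RPM in irradiated and 59310 ± 24877 RPM in sham libraries at 2 h, and their part in these values was not tested.

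In the sham animals alone, 1 of the 34 mitosis genes differed between times by limma's F test, Ube2c (adjusted p = 0.0141), where 17.1 percent of all genes did. Its sham means were 0.866, 0.813, 4.05 and 7.71 RPM at 2 h, 6 h, 1 day and 1 week. The summed sham level of the 36 genes stayed between 68.7 and 104.1 RPM.

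Other genes of the cycle were read from lists of the same kind. Over all genes 4.39, 11, 2.76 and 1.68 percent were called higher at 2 h, 6 h, 1 day and 1 week and 3.88, 7.22, 1.56 and 1.3 percent lower, which is the background of the counts in this paragraph and the next. Of 53 tested further G2 and mitosis genes, 7 rose at 1 week and 0 fell, with a median of 0.56. The 4 with the smallest adjusted p were Dlgap5, a spindle assembly factor (2.02 ± 0.40, limma adjusted p = 0.00182), Spag5, a spindle pole protein (1.26 ± 0.30, adjusted p = 0.0128), Kifc1, a minus-end motor (1.46 ± 0.37, adjusted p = 0.0170), and Melk, a mitotic kinase (1.17 ± 0.30, adjusted p = 0.0201). At 2 h Kifc1 and Ckap2 rose while Hjurp, the chaperone of Cenpa, and Ncaph, a condensin subunit, fell. Kifc1, a spindle gene like Nusap1, rose by 2.36 ± 0.37 at 2 h (adjusted p = 4.27e-06). At 6 h 3 of the 53 rose, Kifc1 and Ckap2 again among them, and 2 fell, again Hjurp and Ncaph. At 1 day 0 rose and 1, Ncaph, fell.

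Of 38 tested S phase genes, 4 rose at 1 week and 0 fell, namely Clspn, a checkpoint mediator at replication forks (2.13 ± 0.26, limma adjusted p = 1.02e-07), Mcm6, a helicase subunit (1.63 ± 0.33, adjusted p = 0.00217), Cdc6, a replication licensing factor (2.07 ± 0.42, adjusted p = 0.00218), and Ccne1, cyclin E1 (1.99 ± 0.48, adjusted p = 0.0122). At 6 h 1 rose and 2 fell, where 11 percent of all genes were called higher and 7.22 percent lower. At 2 h and 1 day 0 of 38 passed the test in either direction, where 4.39 and 2.76 percent of all genes were called higher and 3.88 and 1.56 percent lower. At an unadjusted p under 0.05, 1 and 0 were higher (all genes 9.46 and 8.87 percent) and 4 and 4 lower (all genes 10.1 and 6.9 percent). Of 18 tested brakes and switches of mitotic entry, 4, 7, 4 and 2 rose at 2 h, 6 h, 1 day and 1 week, and 0, 2, 0 and 1 fell. Cdkn1a, the p21 inhibitor of cyclin-dependent kinases, rose at every time, by 6.28, 6.09, 5.61 and 4.94 on the log2 scale. Ccng1, cyclin G1, a target of p53, rose by 3.66, 3.60, 2.93 and 1.72. Cdkn1a was thus still far above sham at 1 week, when the 6 mitosis genes were higher. Of 20 tested regulators of G2 and mitosis transcription, 0 passed the test at 1 week. At an unadjusted p under 0.05, 5 of the 20 were higher and 0 lower, where 9.72 and 6.59 percent of all genes were. At 6 h 4 of them fell, Tfdp1, Lin9, Tfdp2 and Rbl1, which are E2F partners or members of the DREAM and MuvB complexes, by 1.14, 1.14, 1.05 and 0.92, and 0 rose. At 2 h Rb1 (0.97) and Nfyb (1.03) rose and Tfdp2 (-1.14) fell, and at 1 day Rbbp4 (-0.99) fell.

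The mitosis genes were compared for what they share in sequence. They lie on 16 chromosomes, 7 of them on chromosome 2. In build GRCm38 the 6 genes called at 1 week are Top2a (ENSMUSG00000020914) at chr11:98992943-99024189, Ccnb1 (ENSMUSG00000041431) at chr13:100778650-100786570, Cdca3 (ENSMUSG00000023505) at chr6:124829547-124833701, Nuf2 (ENSMUSG00000026683) at chr1:169497934-169531464, Kif4 (ENSMUSG00000034311) at chrX:100625737-100727214 and Anln (ENSMUSG00000036777) at chr9:22331214-22389206. These are whole gene spans, exons and introns together, and the spans of the 36 run from 4155 to 101478 bases. Per length of gene span, Cdk1, Cenpa and Cdca3 had the highest mean level over all libraries, at 0.692, 0.636 and 0.481 RPKM (RPM per kilobase, here of the gene span), and Kif4 the lowest at 0.00731. RefSeq promoters of build GRCm38.p6 were at hand for 32 of the 36 genes. In the 250 bases upstream of the start, read on both strands, 26 of the 32 (81.2 percent) held the letters CCAAT, the box bound by NF-Y, where 37.5 percent of all 27025 genes of the table did. The letters TTTGAA, the cell cycle homology region read by the MuvB core of DREAM, were found in 11 (34.4 percent, against 18.3 percent), and both motifs in 10 (31.2 percent, against 6.45 percent). More than 1 CCAAT was found in 19 genes (59.4 percent, against 11.5 percent). In 8 genes (25.0 percent, against 1.25 percent) 2 such boxes lay 31 to 34 bases apart, a spacing that was chosen after the sequences were seen. In 51 further G2 and mitosis genes the shares were 66.7 percent for CCAAT, 51.0 percent for TTTGAA and 3.92 percent for the spacing. The 2 motifs can overlap by at most 1 letter, and a match is a description of the letters and no measure of binding.

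Printed here are the 250 upstream bases of Top2a, Kif11 and Mki67, the genes with both motifs that passed the test in at least 1 comparison, and the last 100 upstream bases of Aurka and Ccnb2, which show the spacing. All end at the base before the RefSeq start, 5′ to 3′ on the strand of the gene, and capitals mark CCAAT or TTTGAA on either strand (ATTGG and TTCAAA are their reverse complements). Top2a is on the minus strand at chr11:99024190-99024439, Kif11 on the plus strand at chr19:37376132-37376381, Mki67 on the minus strand at chr7:135716380-135716629, Aurka on the minus strand at chr2:172370571-172370670 and Ccnb2 on the minus strand at chr9:70421555-70421654.
Top2a: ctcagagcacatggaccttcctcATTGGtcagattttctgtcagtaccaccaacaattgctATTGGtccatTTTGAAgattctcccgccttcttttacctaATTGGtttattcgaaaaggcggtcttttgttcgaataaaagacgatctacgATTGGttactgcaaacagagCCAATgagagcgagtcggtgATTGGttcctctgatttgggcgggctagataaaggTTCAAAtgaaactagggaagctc
Kif11: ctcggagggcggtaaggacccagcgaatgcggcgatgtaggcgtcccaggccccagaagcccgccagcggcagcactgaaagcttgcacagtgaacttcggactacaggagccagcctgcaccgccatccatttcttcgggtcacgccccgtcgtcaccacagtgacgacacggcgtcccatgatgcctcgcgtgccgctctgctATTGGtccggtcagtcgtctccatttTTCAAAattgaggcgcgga
Mki67: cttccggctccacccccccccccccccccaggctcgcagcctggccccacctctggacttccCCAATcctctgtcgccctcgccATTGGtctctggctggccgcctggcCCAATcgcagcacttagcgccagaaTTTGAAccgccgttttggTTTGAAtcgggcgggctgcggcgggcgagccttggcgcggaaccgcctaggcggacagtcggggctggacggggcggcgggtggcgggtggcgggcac
Aurka: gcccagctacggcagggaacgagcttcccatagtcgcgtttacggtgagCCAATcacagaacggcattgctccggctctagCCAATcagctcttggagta
Ccnb2: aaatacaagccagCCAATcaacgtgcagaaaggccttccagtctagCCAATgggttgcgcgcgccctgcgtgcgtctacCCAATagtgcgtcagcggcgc
Top2a, the gene with the largest difference between 1 week and 1 day, holds 6 CCAAT boxes and 2 TTTGAA, the nearest of which begins 23 bases before the start. Kif11 holds 1 of each, at 45 and 19 bases before the start. Mki67 holds 3 CCAAT boxes and 2 TTTGAA, all at least 98 bases before the start. Aurka holds 2 boxes that begin 32 bases apart, and Ccnb2 3 boxes at intervals of 33 and 33 bases. Neither motif was found in the window of Nuf2 or of Anln, both called at 1 week.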

How the data were processed

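Bulk RNA-seq libraries of sorted hippocampal microglia from 48 mice, 6 in each of 8 groups by treatment and time, were analysed. The tools named in the submitters' processing notes are STAR 2.6.1d and featureCounts 1.5.1, beside bcl2fastq 2.20.0 and FastQC 0.11.8, and the build is GRCm38 (mm10). The deposited values are RPKM computed by the authors, per the file headers; the strand setting of the counting is not given in the sources used here. Multiplying each RPKM by the length of the gene span in the table showed whole reads divided by library totals, and in 98.0 percent of values not by the total of the same library. All 719081 values above 0 came out whole (100 percent, within 0.001 reads), each member with 1 match, and reads were rescaled to reads per 1000000 of the library's own total (RPM; totals 175382 to 3856777 reads).

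Genes with a mean of at least 0.5 RPM (14615) entered 1 limma fit (R 4.3.3, limma 3.58.1) of log2(RPM + 1) on the 8 groups, with 40 residual degrees of freedom, moderated two-sided tests and Benjamini-Hochberg adjustment over all genes. A gene was called at an adjusted p under 0.05. The difference between irradiation effects at consecutive times was a contrast of the same fit, and sham groups were compared by an F test. A quasi-Poisson model of the recovered reads was run as an alternative and called 790, 1976, 725 and 431 genes at 2 h, 6 h, 1 day and 1 week, where limma called 1209, 2665, 631 and 436. Scripts were tested on simulated data. Other alternatives were another pseudocount, filter or scaling, voom weights, RPKM of the own total, values as deposited, fits of 12 libraries, the replicate number as a block, and leaving out libraries. Leaving out the 3 shallowest libraries from the comparison of 1 week with 1 day, and leaving out single libraries there, were added after seeing the data.

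All 36 members are described, with values by library for those called in any irradiated minus sham comparison and for the 8 with the highest mean RPM. From the other lists up to 4 called genes per time, by adjusted p, are named. The members and lists were chosen with earlier results of these data known. Samples are separate animals per the series' labels. The replicate numbers were not used to pair the samples. Sham and irradiated libraries of the same number had correlations of their deviations between -0.133 and 0.140, with 1 of 24 pairs above 0.1. At 2 h these correlations lay between 0.00751 and 0.140, and 4 of 6 libraries correlated best with their own number. Promoters are RefSeq's, build GRCm38.p6, searched with Python 3.11.15 and pandas 2.3.3, and figures were drawn with matplotlib 3.10.9.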

Additional observations from a re-analysis of the deposited data

Results flagged for a closer look

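Single libraries stood far above the other 5 of their group in several results. Among 72 summed groups 7 held such a library, and among 120 groups of single genes 37, where chance gives about 1 in 20 and counts of a few reads are not evenly spread. The gap to the next library, as a share of the range, exceeded Dixon's 95% critical value.

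For the role groups, these libraries were sham 1 day library 6 for Mki67 with Top2a (17.11 RPM, next 5.28 RPM), sham 1 week library 4 for the anaphase-promoting complex (25.86 RPM, next 10.9 RPM) and sham 1 week library 2 for the passenger complex (13.6 RPM, next 5.70 RPM). Sham 6 h library 3 stood apart for midzone and cytokinesis genes (25.25 RPM, next 12.3 RPM). The mitotic kinases had 3 such groups, with library 5 each time, at 13.61 RPM in sham at 2 h, 20.87 RPM in sham at 6 h and 10.97 RPM in irradiated microglia at 6 h.

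Among single genes at 1 week, irradiated libraries stood apart for Ccna2 (14.94 RPM, library 2), Ccnb1 (13.3 RPM, library 5), Cdk1 (41.34 RPM, library 6) and Kif4 (11.47 RPM, library 1). Sham libraries did so for Anln (5.926 RPM, library 2), Ccnb1 (1.669 RPM, library 1), Ckap2l (17.08 RPM, library 2), Kif2c (10.35 RPM, library 1), Nusap1 (5.704 RPM, library 5), Top2a (14.27 RPM, library 6) and Tpx2 (23.29 RPM, library 3). At 6 h sham library 4 held 13.66 RPM of Ccna2, sham library 2 held 5.257 RPM of Nuf2 and irradiated library 6 held 7.56 RPM of Cenpa, and at 2 h sham library 6 held 14.95 RPM of Cenpa. At 1 day sham library 6 held 17.11 RPM of Top2a, sham library 5 held 4.253 RPM of Anln, irradiated library 4 held 1.645 RPM of Anln and irradiated library 6 held 7.423 RPM of Kif4. Only some of the 37 groups of single genes are named here.

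The irradiation effect differed between 1 week and 1 day by limma's contrast for 5 genes, by 3.43 for Top2a, 3.14 for Mki67, 2.32 for Anln, 2.30 for Kif11 and 2.07 for Aurka on the log2 scale. In each, the effect was above 0 at 1 week and below 0 at 1 day.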

How the results depend on the processing

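No summed difference and no called gene's estimate changed sign under the alternatives run, and every tested estimate at 1 week was above 0 in 20 of 26 settings. The counts of called mitosis genes moved, and the cause was not tested unless named.
At 2 h, where limma called 1, 0 were called with a filter at 2 RPM (15 genes tested), no filter, voom weights, the quasi-Poisson model, RPKM of the own total (4 genes tested), values as deposited, or the 12 libraries of the time alone, and 3 (1 higher, 2 lower) without the 3 shallowest libraries. At 6 h, where 1 was called, 0 were with a pseudocount of 0.5 RPM, no filter, voom, RPKM of the own total, values as deposited, the 12 libraries alone or sham libraries 5 and 6 alone, where the summed difference was -6.24 RPM, and 4 were with sham libraries 1 to 4 alone. With a pseudocount of 2 RPM the 1 gene called at 2 h was Kif2c, higher, in place of Nusap1. At 6 h Kif4, lower, was the 1 gene called by the quasi-Poisson model. Without the 3 shallowest libraries it was Nuf2, lower, in place of Ccna2. At 1 day, where 0 were called, the quasi-Poisson model called 1. At 1 week, where 6 were called, the count was 2 with a pseudocount of 0.5 RPM, 12 with 2 RPM, 2 with a filter at 2 RPM, 2 with no filter, 14 with voom, 1 with RPKM of the own total and 0 with values as deposited. The quasi-Poisson model also called 6 at 1 week, namely Mki67, Bub1b, Cdca3, Cenpf, Nuf2 and Racgap1. It did not call Top2a, Ccnb1, Kif4 or Anln. For 1 week against 1 day, where 5 were called, voom gave 8 and the quasi-Poisson model 2, Kif11 and Racgap1. Leaving out the 3 shallowest libraries, chosen after seeing the data, gave 10.
Leaving out single libraries gave 0 to 2 calls at 2 h, 0 to 3 at 6 h, 0 to 0 at 1 day, 1 to 7 at 1 week and 3 to 8 for 1 week against 1 day, and summed differences of -18.0 to -6.45, -33.1 to -18.3, -30.2 to -17.5 and 134.1 to 154.2 RPM at the 4 times.
With the replicate number as a block the counts were 1, 0, 0 and 6 at 2 h, 6 h, 1 day and 1 week, but not of the same genes. The 2 h gene was then Cenpa, lower, in place of Nusap1, higher, and the 1 week genes were Mki67, Ccnb2, Cdca3, Cenpf, Nuf2 and Anln, without Top2a, Ccnb1 and Kif4. The numbers were not used as pairs in the main fit. At these times 4, 1, 1 and 2 of 6 libraries correlated best with their own number, and a pairing at 2 h was not tested further.
Voom put the median difference of all genes at 0.12 at 6 h and -0.11 at 1 day, and the deposited values put it at 0.31 at 1 day. Depth limits the low genes, of which 7 drew fewer than 100 reads over all libraries, and a group with 0 reads still allows between 0.167 and 0.297 RPM.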
